A study of Mus musculus with 24 samples.

Results

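Mouse embryonic stem (ES) cells that lack both Smchd1 and Dux (Double KO) were compared with ES cells that lack Smchd1 and carry Dux (Smchd1 KO), over all genes, for the effect of losing Dux where Smchd1 is already missing. The comparison was set by genotype, not by measured values. It uses 9 of the 24 RNA sequencing libraries of the study: 3 of Double KO and 6 of Smchd1 KO. The latter were taken as 3 biological replicates, each sequenced in 2 technical runs that were averaged. Thus 6 of the 18 biological replicates of the study are compared, 3 against 3, over 37310 gene entries. All groups were grown without feeder cells on gelatin, in medium with serum and the cytokine LIF, and total RNA was sequenced after removal of ribosomal RNA. Wild type (WT) and Dux KO cells were measured in the same table, and their levels are given beside the comparison. Both also entered the filter and the estimate of spread behind every p-value, so the number of genes that passed depends on them. The study also holds cells without the 3 Tet genes, which were not used. Whether the replicates of a genotype are separate clones or cultures of a single clone is not given in the sources used here.

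DUX is a homeobox transcription factor made in a short pulse when the mouse embryo switches on its genome. It binds the promoters of genes that are specific to the 2-cell embryo, among them the Zscan4, Usp17, Eif1a-like and Prame-like families, and a few cells in an ES culture pass through a state in which the same genes are on. SMCHD1 is a noncanonical SMC protein that helps to silence the inactive X chromosome, some imprinted domains and gene clusters, and the repeat array that holds Dux in mice and its counterpart DUX4 in humans.

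The targeted genes were looked at first. Smchd1 (ENSMUSG00000024054.5) stood at 46.2, 76.5 and 58.5 CPM (the deposited unit, counts per 1e6 counts of an effective library size) in Smchd1 KO replicates 1 to 3 and at 71.0, 78.2 and 87.9 CPM in Double KO, against 203 to 207 CPM in WT. Both groups were far under WT, overlapped each other, and did not differ by the test (log2 change 0.41, adjusted p = 0.144). Dux (ENSMUSG00000058537.2) had 0.833, 0.847 and 0.410 CPM in Smchd1 KO, and in Double KO it had no reads in replicates 1 and 3 and 0.245 CPM in replicate 2. The gene that the table calls Gm10807, which the GENCODE vM21 annotation names Duxf3, had 0.426, 0.675 and 0.114 CPM in Smchd1 KO and 0.0619, 0.245 and 0.0594 CPM in Double KO. The table's Dux entry has the name AW822073 there, so these are 2 copies of the repeat array, and both lay under the filter for testing. Duxbl, a related homeobox gene on another chromosome, had at most 0.0612 CPM in any of the 6 replicates. Of the 50-base words of Dux 52.1% occur in another gene, of those of Gm10807 47.0% and of those of Duxbl 93.5%. Part of these few reads thus cannot be given to a single gene, and the low level of Duxbl is uncertain.

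Depth was 11.4 to 52.9 (in units of 1e6 gene reads) per Smchd1 KO library, 57.9 to 70.2 per replicate over both runs and 14.8 to 17.2 per Double KO library, so Double KO was counted less deeply. The replicates of Double KO differed among themselves more than those of Smchd1 KO, with a median standard deviation of 0.31 against 0.12 on the log2 scale. Some libraries stood apart by chromosome. The median gene of chromosome 6 was lower by 0.46 on the log2 scale than the WT mean in Smchd1 KO replicate 2 and by 0.49 in Double KO replicate 3, whose chromosome 1 was higher by 0.46. Levels are compared between groups and not between genes, since CPM is not divided by gene length.

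Genes of the 2-cell stage had far fewer transcripts in Double KO than in Smchd1 KO. The 2-cell-stage lists were written with earlier results of these data known, so the share of members that fell is a description and not a test. Of 67 entries of these lists in the table, 37 passed the filter of 0.5 CPM in 3 samples. Of these, 33 fell in Double KO, none rose and 4 did not pass the test. Over all 16200 genes tested, 2.98% fell. The median log2 change of the 37 was -2.98, beside -0.03 over all genes tested. In each of the 33, all 3 Double KO replicates lay below all 3 Smchd1 KO replicates, and 13 had no reads in any Double KO library. The groups also did not overlap for 482 of all 483 genes that fell, and for 29.7% of all genes tested. Since 11 members passed the filter only through Smchd1 KO, all 55 members with any read were also fitted without a filter. There 40 fell and none rose, with 1.55% of all genes falling in that fit. Of the 18 members with reads that lay under the filter, 17 had a lower mean in Double KO and 14 had no reads there. Among the 33, Smchd1 KO replicate 3 had the lowest Smchd1 KO value for 32, and the Double KO mean was below the WT mean for 32. The number that fell was 31 to 34 when any single replicate of the 4 genotypes was left out.

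**Figure D1:**
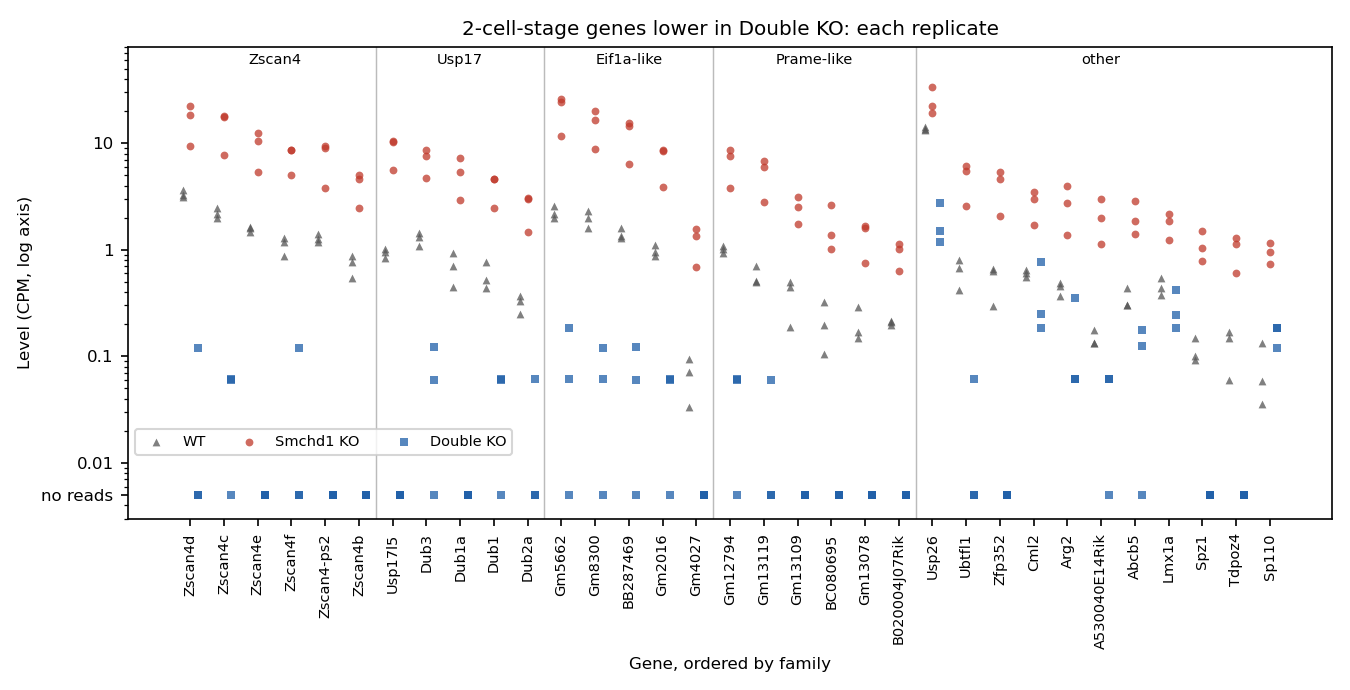
Level in CPM (log axis) of the 33 2-cell-stage genes that fell in Double KO, by family, with a point for each of 3 replicates of WT (triangles), Smchd1 KO (circles) and Double KO (squares), and points without reads drawn on a line of their own. All Double KO squares lie under the Smchd1 KO circles of the same gene, and 13 genes have only squares on the line without reads.

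Sequences just upstream of a few of these genes are shown because DUX acts through promoters. The stretch of 250 bases before the annotated start was read from RefSeq on build GRCm38.p6, 5′ to 3′ on the gene's strand. The motif GATTNAATC, the core of the longer DUX motif (the same letters with a T before and an A after, so that both motifs read the same on the 2 strands), was searched in windows of 300 bases that add 50 bases after the start. Gm8994, Gm13119 and B020004J07Rik hold the core, in capitals. Zscan4f and Zscan4b, which also fell, do not hold it in these windows and are shown as close copies of each other.
Gm8994 (RefSeq name Eif4a3l1, chr6:136327289-136327538, plus strand): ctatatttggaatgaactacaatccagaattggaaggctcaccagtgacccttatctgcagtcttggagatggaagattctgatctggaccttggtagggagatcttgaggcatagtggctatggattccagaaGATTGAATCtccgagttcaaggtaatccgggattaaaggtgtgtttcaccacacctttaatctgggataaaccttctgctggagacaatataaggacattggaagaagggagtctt
B020004J07Rik (RefSeq name Pramel17, chr4:101844023-101844272, minus strand): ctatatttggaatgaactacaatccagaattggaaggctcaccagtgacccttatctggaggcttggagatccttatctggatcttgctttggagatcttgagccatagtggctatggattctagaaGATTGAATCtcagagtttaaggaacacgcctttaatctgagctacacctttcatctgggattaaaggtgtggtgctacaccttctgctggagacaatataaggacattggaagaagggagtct
Gm13119 (RefSeq name Pramel31, chr4:144357714-144357963, plus strand): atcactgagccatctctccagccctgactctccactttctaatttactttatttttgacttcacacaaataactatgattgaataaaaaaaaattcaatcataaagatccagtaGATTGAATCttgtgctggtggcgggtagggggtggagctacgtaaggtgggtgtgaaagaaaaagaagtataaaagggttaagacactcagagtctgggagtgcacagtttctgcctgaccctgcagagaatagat
Zscan4f (chr7:11397665-11397914, plus strand): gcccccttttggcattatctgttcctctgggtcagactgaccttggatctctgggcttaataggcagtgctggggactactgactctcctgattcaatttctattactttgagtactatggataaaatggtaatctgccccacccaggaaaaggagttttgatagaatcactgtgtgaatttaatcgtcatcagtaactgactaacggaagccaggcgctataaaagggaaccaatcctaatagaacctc
Zscan4b (chr7:10905051-10905300, minus strand): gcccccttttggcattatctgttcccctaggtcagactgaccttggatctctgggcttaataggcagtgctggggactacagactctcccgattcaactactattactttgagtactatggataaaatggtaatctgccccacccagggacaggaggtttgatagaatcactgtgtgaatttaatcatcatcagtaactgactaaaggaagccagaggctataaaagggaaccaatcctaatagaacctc

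The core began 116 bases before the start of Gm8994, 123 before that of B020004J07Rik and 136 before that of Gm13119. Gm8994 and B020004J07Rik, which belong to different gene families, shared an unbroken run of 58 bases, at the far end of both stretches. That was their longest shared run, and the stretches were also much alike around the core and next to the start. Their matches of the core are thus not independent of each other. Zscan4f and Zscan4b were identical at 237 of 250 positions (94.8%). Of the 483 genes that fell, 357 were matched to a RefSeq window, and 4 of these (1.12%) held the core. They were the 3 genes above and Ppm1j, a protein phosphatase gene. The core was in 23 of 11799 matched genes tested (0.195%), in 88 of all 32851 windows (0.268%) and in none of the 176 matched genes that rose. The longer motif, of which every match is also a match of the core, was in none of the 357, in 2 of the 11799 and in 11 of the 32851 windows. A match is a description of the letters and not of binding.

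The Zscan4 genes encode zinc finger proteins with a SCAN domain that mark the 2-cell-like state and act in telomere maintenance in ES cells. All 6 measured members fell, beside 2.98% of all genes tested. Their summed level was 69.4, 75.1 and 33.9 CPM in Smchd1 KO and 0, 0.0612 and 0.297 CPM in Double KO, against 9.61 to 10.9 CPM in WT and no reads in Dux KO. Zscan4d (ENSMUSG00000090714.1, chromosome 7) had 18.4, 22.4 and 9.45 CPM in Smchd1 KO, and in Double KO it had no reads in replicates 1 and 2 and 0.119 CPM in replicate 3. Its log2 change was -4.92 on the scale of log2(CPM + 0.5) (adjusted p = 1.15e-06), and the ratio of mean CPM was 423 (95% counting interval 111 to 3326, on 2 reads in Double KO). Zscan4c had 18, 17.7 and 7.71 CPM in Smchd1 KO and 0, 0.0612 and 0.0594 CPM in Double KO (log2 change -4.70). Zscan4e (10.4, 12.5 and 5.38 CPM in Smchd1 KO) and Zscan4-ps2 (9.36, 8.94 and 3.83 CPM) had no reads in Double KO. They were at least 155-fold and 121-fold lower there, taking the limit that no reads allow as 3 reads over the group. Zscan4f had 8.58, 8.55 and 5.05 CPM in Smchd1 KO and reads in Double KO replicate 3 alone (0.119 CPM; log2 change -3.84). Zscan4b, the least abundant, had 4.66, 5.05 and 2.47 CPM and then no reads (at least 66.8-fold lower). Copies share much of their transcripts (86.8% of the 50-base words of Zscan4f and 85.5% of those of Zscan4c occur in another gene), so the level of a single copy is uncertain.

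The Usp17 family, with genes also named Dub, encodes deubiquitinating enzymes, and its genes are clustered on chromosome 7. All 5 measured members fell, beside 2.98% of all genes tested, and 1 of the 5 had passed the filter only through Smchd1 KO. The family sum was 33.9, 31.0 and 17.2 CPM in Smchd1 KO and 0.0619, 0.183 and 0.119 CPM in Double KO, with 3.14 to 4.28 CPM in WT. Usp17l5 (ENSMUSG00000058976.4) had 10.3, 10.5 and 5.63 CPM in Smchd1 KO and no reads in Double KO, which is at least 145-fold lower (log2 change -4.17, adjusted p = 1.15e-06). Dub3 had 8.69, 7.53 and 4.71 CPM in Smchd1 KO and 0, 0.122 and 0.0594 CPM in Double KO. Dub1a, at 7.25, 5.37 and 2.95 CPM in Smchd1 KO, had no reads in Double KO and was at least 85.4-fold lower. Dub1 (4.6, 4.58 and 2.49 CPM) and Dub2a (3.08, 3 and 1.47 CPM) kept 2 reads and 1 read in Double KO. In each of the 5 genes, as in 482 of all 483 genes that fell, every Smchd1 KO replicate lay above every Double KO replicate. Smchd1 KO replicate 3 was the lowest of the 3.

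The Eif1a-like genes, copies that resemble the translation initiation factor eIF1A, lie on chromosome 12 where they could be placed. Of 10 entries 5 passed the filter, 1 of them only through Smchd1 KO, and all 5 fell, beside 2.98% of all genes tested. Without a filter 8 of the 9 entries with any read fell, beside 1.55% of all genes in that fit. The sum over the entries was 72.3, 69.4 and 32.6 CPM in Smchd1 KO and 0.0619, 0.489 and 0.238 CPM in Double KO, against 6.5 to 7.78 CPM in WT. Gm5662 (ENSMUSG00000072905.4) had the largest fall of the 2-cell-stage lists on the fitted scale, from 24.3, 25.8 and 11.7 CPM to 0.0619, 0.183 and 0 CPM (log2 change -5.11, adjusted p = 1.15e-06). Gm8300 went from 20.1, 16.5 and 8.74 CPM to 0, 0.0612 and 0.119 CPM (-4.73). BB287469 (ENSMUSG00000071217.2) went from 15.4, 14.4 and 6.31 CPM to 0, 0.122 and 0.0594 CPM (-4.39). Gm2016 fell by 3.72 on the log2 scale, and Gm4027 was at least 19.7-fold lower. Under the filter, Gm2056 had 0.841, 1.23 and 0.428 CPM in Smchd1 KO and Gm8332 had 0.466, 0.771 and 0.315 CPM, both without reads in Double KO. Copies are again close: 81.3% of the 50-base words of Gm5662 and 94.4% of those of Gm4027 occur in another gene, against 26.6% for Gm8300.

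The Prame-like genes encode leucine-rich repeat proteins, many of them active in oocytes and early embryos, in clusters on chromosome 4. Here the family split: of 9 measured members among 23 entries, 6 fell and 3 did not pass, beside 2.98% of all genes falling. Of the 9, 3 passed the filter only through Smchd1 KO. Without a filter 8 of the 14 members with any read fell, beside 1.55% of all genes in that fit. Gm12794 (ENSMUSG00000070890.3) had 7.62, 8.61 and 3.82 CPM in Smchd1 KO and 0, 0.0612 and 0.0594 CPM in Double KO (log2 change -3.66, adjusted p = 4.38e-06). Gm13119 had 6.01, 6.81 and 2.78 CPM and a single read in Double KO replicate 3 (-3.37). Gm13109, BC080695, Gm13078 and B020004J07Rik had no reads in Double KO and were at least 40.5-fold, 27.6-fold, 22-fold and 15.2-fold lower. The 3 members without a call were those with a level in Double KO near or above WT. Pramef12 had 61.3, 56.1 and 62.5 CPM in Smchd1 KO and 40.2, 36.8 and 41.9 CPM in Double KO, with 35.0 to 36.7 CPM in WT; the groups did not overlap, but the test was not passed (log2 change -0.59, adjusted p = 0.0652). Pramef8 had 22.8 to 25.7 CPM in Smchd1 KO and 18.6 to 35.7 CPM in Double KO, and Gm16503 had 1.95 to 2.30 and 1.96 to 5.20 CPM. For both, the groups overlapped.

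Outside these families, 11 of 12 measured 2-cell-stage genes fell, among 23 entries, beside 2.98% of all genes tested. Of the 12, 6 passed the filter only through Smchd1 KO. Without a filter 13 of the 21 members with any read fell, beside 1.55% of all genes in that fit. Usp26, an X-linked ubiquitin-specific protease gene, had the highest level in WT and in Double KO of the 33 genes that fell. It had 33.4, 19.3 and 22.3 CPM in Smchd1 KO and 1.49, 2.75 and 1.19 CPM in Double KO, against 13.4 to 14.2 CPM in WT and 1.04 to 4.13 CPM in Dux KO (log2 change -3.49, adjusted p = 0.000336). No part of its transcript occurs in another gene at 50 bases. Ubtfl1, an HMG-box gene of the preimplantation embryo with 3.36% shared words, had 6.06, 5.45 and 2.56 CPM in Smchd1 KO and a single read in Double KO (-3.24). Zfp352, a zinc finger gene of the 2-cell embryo, had 4.59, 5.33 and 2.06 CPM and no reads in Double KO, at least 65.7-fold lower. The arginase gene Arg2 went from 2.76, 3.96 and 1.37 CPM to 0.0619, 0.0612 and 0.356 CPM (-2.22), and the ABC transporter gene Abcb5 fell by 2.05 on the log2 scale. A530040E14Rik fell by 2.17. The remaining falls (Cml2, Lmx1a, Spz1, Tdpoz4 and Sp110, all list members named here after their values were seen) ran from 1.86 down to 1.13 on the log2 scale. Zfp951, the member that did not pass, varied within both groups, with 5.55, 14.9 and 2.25 CPM in Smchd1 KO and 6.81, 1.53 and 35.5 CPM in Double KO.

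Outside the 2-cell-stage lists, Gm8994 (ENSMUSG00000060782.5, a copy resembling the RNA helicase Eif4a3) had the largest fall of all genes on the fitted scale. Its level was 25.4, 21.9 and 12.5 CPM in Smchd1 KO and 0, 0.122 and 0.0594 CPM in Double KO, against 2.54 to 2.57 CPM in WT and no reads in Dux KO. The log2 change was -5.14 (adjusted p = 6.84e-07), and the CPM ratio was 329 (95% counting interval 109 to 1543, on 3 reads in Double KO). It was the only 1 of 6 measured genes in the list of other DUX targets that fell, beside 2.98% of all genes, and the median of the 6 was -0.52. None of 26 known activators and repressors of Dux passed in either direction (median -0.02, positive with chromosome medians centred, quantile normalization, edgeR and DESeq2). The most abundant of them, Ncl, which encodes nucleolin, had 2517 to 2835 CPM in Smchd1 KO and 2315 to 5972 CPM in Double KO. It lies on chromosome 1, the chromosome that stood higher in Double KO replicate 3, the sample with the highest value. None of 9 measured heterochromatin partners of SMCHD1, Smchd1 included, passed (median -0.06, turning positive with chromosome medians centred). The heterochromatin protein gene Cbx5 had 1153 to 1230 CPM in Smchd1 KO and 911 to 1154 CPM in Double KO.

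Over all 16200 genes, 483 fell and 226 rose in Double KO (709 in all, 4.38%). At an unadjusted p under 0.05 there were 4064. Falls were also larger than rises: 205 genes fell and 91 rose at least 2-fold, and 53 fell and 2 rose at least 4-fold. Of the 483 falls, 39 passed the filter only through Smchd1 KO, and 26 had no reads in Double KO. The like counts for the rises were not made. Without a filter 435 genes fell and 158 rose among 28140. Replicates of the groups did not overlap for 482 of the 483 and for all 226, where 29.7% of all genes tested showed no overlap. These counts rested on the libraries in the fit. Without Double KO replicate 1, 191 genes passed, and without Double KO replicate 3, 2428 did. Leaving out Smchd1 KO replicate 1, 2 or 3 gave 99, 166 and 135, and a fit to the 2 genotypes alone gave 121 (101 lower and 20 higher). In that last fit 31 of the 37 measured 2-cell-stage genes fell, beside 0.623% of all genes. Calls were kept in each of the 6 fits that left out a replicate of Smchd1 KO or Double KO by 83 of the 483 falls, 31 of them in the 2-cell-stage lists, and by 9 of the 226 rises. The split of the calls moved as well: 31.9% were rises as reported, 42.8% (476 lower, 356 higher) with quantile normalization, 48.2% (465 lower, 432 higher) with edgeR on recovered reads and 50.8% (1208 lower, 1248 higher) with DESeq2.

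**Figure D2:**
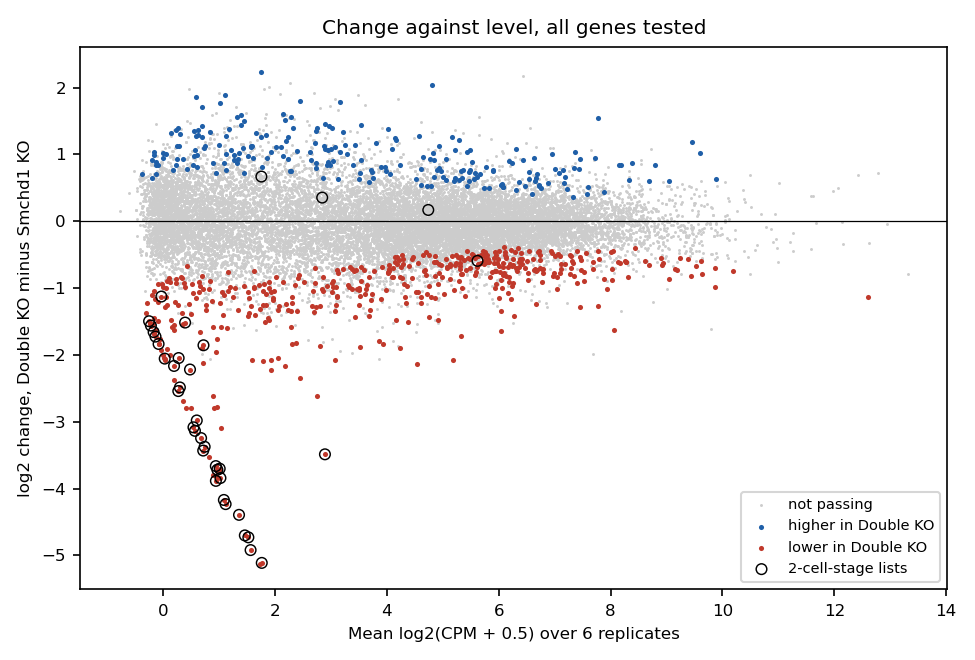
Log2 change (Double KO minus Smchd1 KO) against mean level for the 16200 genes tested, with calls in colour and the 37 measured 2-cell-stage genes ringed. The 33 ringed genes that fell lie along the lower edge at low mean levels, with Usp26 at a higher mean, and the other 4 lie near the line of no change.

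Several falls belonged to none of the lists. They are named here after their values were seen, since their calls held in all 6 of those fits. Gm4971 (9.01, 9.63 and 3.70 CPM in Smchd1 KO, a single read in Double KO) and Tmem92-ps (7.66, 9.93 and 3.46 CPM, no reads in Double KO and at least 115-fold lower) were among the 15 largest falls and had the same pattern as the 2-cell-stage genes, with 0.641 to 1.12 CPM in WT and no reads in Dux KO. The pseudogene Gm6189 (7.09, 5.41 and 4.26 CPM in Smchd1 KO) had a single read in Double KO. Other genes kept a measurable level. Pou2f3, a POU transcription factor gene of tuft cells and epidermis, had 17.8, 16.3 and 14.5 CPM in Smchd1 KO and 1.49, 5.01 and 1.31 CPM in Double KO (log2 change -2.62, adjusted p = 0.00244), with 7.99 to 9.28 CPM in WT. Otud6a, a deubiquitinase gene, had 8.02, 7.26 and 6.76 CPM against 0.990, 1.71 and 1.43 CPM (-2.08). Calca, which encodes calcitonin and the peptide CGRP, had 36.5, 33.0 and 37.8 CPM against 8.54, 10.8 and 8.38 CPM (-1.90, adjusted p = 0.00274), and Pnma5, a gene of a retrotransposon-derived family, had 49.5, 37.7 and 44.8 CPM against 13.9, 20.3 and 14.4 CPM (-1.43). For Otud6a, Calca and Pnma5 the WT replicates lay between the groups, at 2.28 to 2.47, 21.5 to 23.9 and 22.1 to 24.5 CPM. RNaseP_nuc, the RNA component of the nuclear ribonuclease P, had 123, 129 and 125 CPM in Smchd1 KO and 43.4, 49.5 and 46.7 CPM in Double KO (-1.42, adjusted p = 1.67e-05), with 80.5 to 90.6 CPM in WT.

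The rises were smaller than the falls and spread over genes of different kinds. Mid1, a microtubule-associated ubiquitin ligase gene, had 1.06, 0.966 and 1.12 CPM in Smchd1 KO and 12, 7.22 and 3.56 CPM in Double KO (log2 change 2.24, adjusted p = 0.00428). Sema3e, a secreted guidance ligand of the semaphorin class, had 10.2, 23.2 and 10 CPM in Smchd1 KO and 83.5, 45.1 and 47.8 CPM in Double KO (2.04, adjusted p = 0.00343). These 2 were the only rises of at least 4-fold, and they kept their calls in all 6 fits that left out a replicate of either group, though not in the fit to the 2 genotypes alone. Both were also above WT in Dux KO, where Mid1 had 4.79 to 8.24 CPM and Sema3e 29.7 to 35.9 CPM, against 1.35 to 1.52 and 16.6 to 17.1 CPM in WT. The ligand gene Wnt3 went from 0.397, 1.03 and 0.533 CPM to 6.44, 1.96 and 3.68 CPM (1.88), and Edn1, the endothelin 1 precursor gene, from 0.133, 0.632 and 0.181 CPM to 4.02, 0.917 and 3.09 CPM (1.85). Ehd2, which encodes an ATPase of caveolae, rose by 1.80. The collagen genes Col7a1 and Col3a1 rose by 1.78 and 1.77, the integrin activator gene Fermt1 by 1.61 and Fras1, a matrix protein gene of the basement membrane, by 1.56. The others were the aspartoacylase gene Aspa (1.72), the tau kinase gene Ttbk1 (1.59), Lrrc15 (1.57), Zdbf2 (1.55), Spats2l (1.51) and Pcnxl2 (1.51), with adjusted p from 0.0118 to 0.0489 for these 13 genes. All 13 lost their call without Smchd1 KO replicate 1, and 12, all but Fermt1, lost it in at least 1 further fit that left out a replicate of the compared groups. Double KO replicate 1 had the highest Double KO value for 150 of the 226 rises and the lowest for 318 of the 483 falls, and its part in the calls was not tested beyond the count without it given above.

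**Figure D3:**
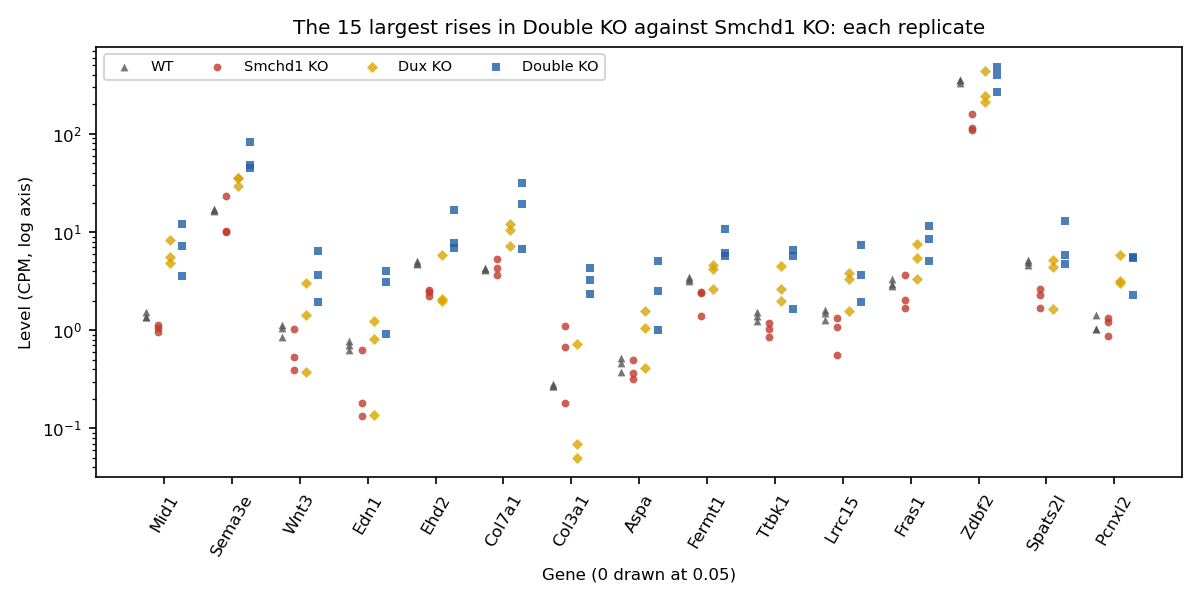
Level in CPM (log axis) of the 15 largest rises in each replicate of WT (triangles), Smchd1 KO (circles), Dux KO (diamonds) and Double KO (squares), with a value of 0 drawn at 0.05. The Double KO squares lie above all Smchd1 KO circles for each gene and spread widely, from 3.56 to 12 CPM for Mid1.

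Smaller rises that held in all 6 of those fits, named after their values were seen, were Klf7, a Krüppel-like transcription factor gene (19.6, 29.5 and 27.0 CPM to 69.0, 46.5 and 63.6 CPM; log2 change 1.22), the glutamate receptor gene Gria4 (0.875, 0.915 and 0.914 CPM to 4.39, 2.51 and 2.85 CPM; 1.39), Zfp618 (1.46), Atp8a2 (1.26), Gpr98 (0.94), 4933413J09Rik and 4933421E11Rik. With Mid1 and Sema3e these are the 9 rises counted above.

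The ES cell identity of both groups was checked on pluripotency genes. Pou5f1 had 681, 773 and 649 CPM in Smchd1 KO and 364, 375 and 623 CPM in Double KO, without overlap (log2 change -0.67, adjusted p = 0.0560). Nanog had 488, 508 and 373 CPM and 181, 330 and 427 CPM, and Sox2 had 422, 475 and 372 CPM and 256, 367 and 505 CPM, both with overlap (adjusted p = 0.143 and 0.511). The transcripts of all 3 factors were thus abundant in every sample. Of 25 measured naive pluripotency genes, 2 fell and none rose (median -0.24), beside 2.98% of all genes falling and 1.4% rising. Fgf4, the growth factor gene of the inner cell mass, went from 344, 372 and 335 CPM to 143, 244 and 146 CPM (-1.02, adjusted p = 0.0168). Tdgf1, a Nodal co-receptor gene, went from 1479, 1301 and 1184 CPM to 497, 892 and 664 CPM (-0.98, adjusted p = 0.0218). Both lost their calls when any single replicate of Smchd1 KO, or Double KO replicate 1, was left out. Among 15 primed and primitive streak genes Wnt3 rose, as given, and the X-linked factor gene Sox3 fell (3.62 to 4.09 CPM to 0.612 to 2.08 CPM; -1.15, adjusted p = 0.0459), a call lost under most alternatives.

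Germline genes, many of them silenced by promoter methylation in somatic cells, had 8 falls and no rise among 34 measured members (median -0.52), beside 2.98% of all genes falling. The number of falls was 1 in the fit to the 2 genotypes alone (Mageb4, named after its values were seen) and 1 to 15 when a replicate was left out. The testis tubulin gene Tuba3a went from 61.0, 44.1 and 42.2 CPM to 3.16, 18.3 and 19.5 CPM (-2.14, adjusted p = 0.0392), and its copy Tuba3b fell by 2.13. The meiotic cohesin gene Smc1b went from 119, 106 and 125 CPM to 18.1, 80.8 and 33.7 CPM (-1.65). Dazl, an RNA-binding protein gene of germ cells, went from 36.8, 32.4 and 21.1 CPM to 5.20, 10.9 and 18.5 CPM (-1.47, adjusted p = 0.0490). Asz1, a piRNA pathway gene, went from 1.55, 0.91 and 0.943 CPM to 0.0619, 0.306 and 0.178 CPM (-1.25, adjusted p = 0.00732), and was the only 1 of the named germline genes to keep its call in all 6 fits that left out a replicate of either group. Dpep3 fell by 1.58. WT stood at 49.5 to 52.8 CPM for Smc1b and 12.4 to 14.1 CPM for Dazl, within the range of Double KO.

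Imprinted genes, expressed from a single parental copy, had 1 rise and 1 fall among 45 measured members (median 0.15), near the 1.4% and 2.98% over all genes. Leaving out a replicate gave 0 to 7 rises and 0 to 2 falls. Zdbf2, a paternally expressed gene, had 110, 161 and 115 CPM in Smchd1 KO and 485, 264 and 400 CPM in Double KO (1.55, adjusted p = 0.0123). Its WT level was 329 to 356 CPM, inside the range of Double KO, and it kept its call with chromosome medians centred, although chromosome 1, where it lies, stood higher in Double KO replicate 3. The call was lost without Smchd1 KO replicate 1 or 3 or Double KO replicate 1. Ascl2, a maternally expressed transcription factor gene of the trophoblast, went from 5.60, 5.38 and 4.54 CPM to 2.41, 2.02 and 2.32 CPM (-1.04, adjusted p = 0.0430), with 2.85 to 3.60 CPM in WT. It lost its call without any replicate of WT or Smchd1 KO, without Double KO replicate 1 or 2 and in the fit to the 2 genotypes alone. The summed level of the imprinted genes was 10530 CPM in Double KO replicate 1 against 4346 to 5764 CPM in the other 5 replicates.

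Hox genes set positional identity along the body axis and lie low in ES cells. Of 19 measured, 3 rose and none fell (median 0.31), beside 1.4% of all genes rising, and all 3 belong to the Hoxa cluster on chromosome 6. Hoxa7 had 0.660, 0.386 and 0.887 CPM in Smchd1 KO and 2.72, 1.65 and 2.85 CPM in Double KO (1.34, adjusted p = 0.0114). Hoxa3 had 0.787, 0.482 and 0.515 CPM and then 2.04, 1.22 and 1.78 CPM (0.99, adjusted p = 0.0256), and Hoxa5 rose by 0.84 (adjusted p = 0.0392). WT had 1.52 to 1.96 CPM of Hoxa7 and 1.80 to 2.54 CPM of Hoxa3, nearer to Double KO than to Smchd1 KO. The chromosome 6 median was low in Smchd1 KO replicate 2 and in Double KO replicate 3, as given above. With chromosome medians centred Hoxa5 lost its call, while Hoxa3 and Hoxa7 kept theirs. Leaving out a replicate gave 0 to 4 rises: Hoxa7 lost its call without Smchd1 KO replicate 1 or 2, and Hoxa3 and Hoxa5 without any replicate of Smchd1 KO, Double KO replicate 1 or WT replicate 1, and Hoxa5 also without WT replicate 2 or 3. None passed in the fit to the 2 genotypes alone.

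Among 20 measured p53 targets, Perp, a gene of cell adhesion and apoptosis, rose and none fell (median -0.12), beside 1.4% of all genes rising and 2.98% falling. Its level was 31.0, 38.9 and 37.3 CPM in Smchd1 KO and 52.2, 56.5 and 53.7 CPM in Double KO (0.60, adjusted p = 0.0203), and 50.8 to 59.5 CPM in Dux KO. The call was lost without Smchd1 KO replicate 1 or 3 and in the fit to the 2 genotypes alone, and leaving out a replicate gave 0 to 2 rises and 0 to 3 falls in the list. None of 16 measured DNA methylation factors passed (median 0.10). Tet1, the most abundant, had 1851 to 1934 CPM in Smchd1 KO and 1934 to 2298 CPM in Double KO. No member passed among 8 measured genes of the X-linked families Xlr and Rhox (median 0.18), 2 protocadherin genes (0.14) or 8 interferon response genes (0.00).

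Replication-dependent histone genes, whose transcripts lack a poly(A) tail, had 2 falls and no rise among 60 measured members, a share near the 2.98% over all genes, and 50 of the 60 had a negative change (median -0.39). Leaving out a replicate gave 0 to 31 falls. The falls were in a pair of H3 genes, Hist2h3c1, from 12.1, 13.9 and 12.7 CPM to 1.36, 3.30 and 6.42 CPM (-1.87, adjusted p = 0.0213), and Hist2h3c2 (-1.59). Both calls were lost when any single replicate of Smchd1 KO was left out. No member passed among 9 mitochondrially encoded genes (median 0.49) or 10 abundant noncoding RNAs (0.39). The nuclear RNA Malat1 had 4654, 5377 and 6556 CPM in Smchd1 KO and 10875, 12473 and 5387 CPM in Double KO, high in replicates 1 and 2 alone.

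Markers of other cell types moved with single libraries for endoderm and trophoblast. The summed level of fibroblast genes was higher in all 3 Double KO replicates, but most of that sum was Fn1 alone. For comparison with the counts below, 2.98% of all genes tested fell and 1.4% rose. All 18 measured endoderm markers had a negative change (median -0.79), but the only call was Hnf4a, a nuclear receptor gene of visceral endoderm. It went from 5.93, 7.70 and 7.23 CPM to 2.10, 2.20 and 3.21 CPM (-1.32, adjusted p = 0.0224), with 2.12 to 2.28 CPM in WT. The summed endoderm level was 2245, 1693 and 5464 CPM in Smchd1 KO and 5182, 1205 and 630.5 CPM in Double KO, so it was high in Smchd1 KO replicate 3 and in Double KO replicate 1. Col4a1, the most abundant, followed the same order, with 533, 343 and 1522 CPM and 1488, 194 and 78.4 CPM. The 11 measured trophoblast markers had a median of 1.16 with Ascl2 as the only call. Their sum was 155, 168 and 280.4 CPM in Smchd1 KO and 939, 251 and 203 CPM in Double KO, highest in replicate 1, where Krt18 stood at 386 CPM against 41.6 to 97.7 CPM in the other 5. Fibroblast genes had 2 rises among 14 (median 0.73), with a sum of 896, 1138 and 863 CPM in Smchd1 KO and 1497, 1528 and 1459 CPM in Double KO. They were Col3a1, given above, and Fn1, the fibronectin gene, from 711, 852 and 713 CPM to 1085, 1272 and 1182 CPM (0.64, adjusted p = 0.0257). Fn1 lost its call with chromosome medians centred and without Smchd1 KO replicate 1 or 3 or any WT replicate. Among 6 neural genes Nes, which encodes the intermediate filament nestin, rose from 17.9, 27.6 and 23.2 CPM to 75.9, 39.0 and 56.1 CPM (1.27, adjusted p = 0.0291). The calls of Hnf4a and Nes were lost when any replicate of Smchd1 KO, or Double KO replicate 1, was left out, and that of Nes also without any WT replicate. None of 10 mesoderm markers passed (median -0.05, positive with chromosome medians centred). Of genes of unrelated tissues, 2 of 8 were measured, and the cardiac myosin gene Myh6 rose from 5.50, 4.84 and 4.6 CPM to 12.3, 9.05 and 12.4 CPM (1.09, adjusted p = 0.00985), a call lost without Smchd1 KO replicate 3. In the fit to the 2 genotypes alone Hnf4a, Fn1, Col3a1, Nes and Myh6 did not pass. In bulk RNA, more cells of a type and more RNA per cell cannot be told apart, and the part of these markers in the other changes was not tested.

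**Figure D4:**
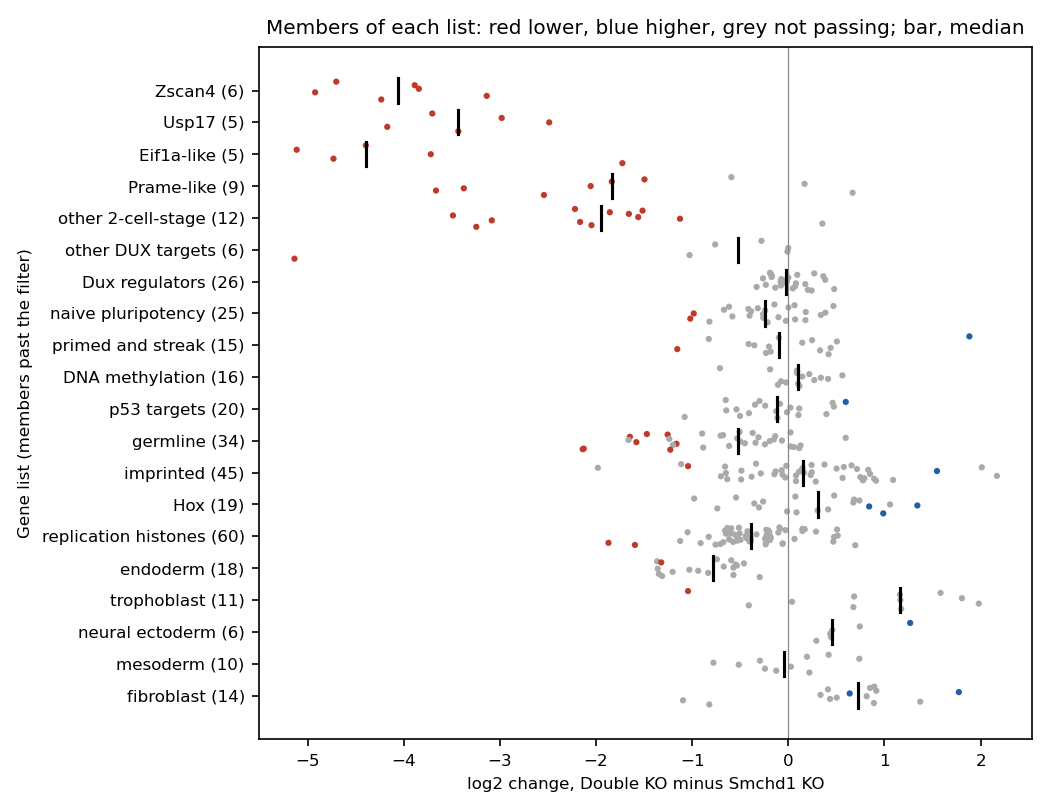
Log2 change (Double KO minus Smchd1 KO) of each measured member of 20 gene lists, with the number measured in brackets, red for genes that fell, blue for genes that rose, grey for the rest and a bar at the median. The 4 2-cell-stage families and the other 2-cell-stage genes lie between -5.11 (Gm5662) and 0.67 (Gm16503), and no other list has a median under -0.79.

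Changes also moved with gene length, counted as the exonic bases of a gene over all its annotated transcripts, which is not the length of a single transcript. The 15554 genes with a length in the annotation were split into 5 equal groups. The median log2 change was -0.16 in the group with the fewest exonic bases (53 to 2011) and 0.13 in the group with the most (7222 and more). In the former 6.33% of genes fell and 0.45% rose, and in the latter 0.836% fell and 3.18% rose. Genes that fell had a median of 2309 exonic bases and genes that rose 6723, against 4052.5 over all genes. Set against the Smchd1 KO mean, the slope was in all 3 Double KO replicates and weakest in replicate 3. Members of 2 housekeeping groups with few exonic bases, chosen after their values were seen, moved along. Of these, 23 of 82 ribosomal protein genes fell (median -0.54), and 21 of 72 nuclear genes of the respiratory chain (median -0.49), beside 2.98% of all genes tested. Rpl22l1, a ribosomal protein paralog, went from 116, 114 and 103 CPM to 46.1, 60.7 and 42.7 CPM (-1.16, adjusted p = 0.000334), and Cox8a, a cytochrome oxidase subunit gene, from 152, 145 and 151 CPM to 75.4, 74.1 and 89.8 CPM (-0.91). With the trend against length removed from every sample, an alternative chosen after seeing the data, 7 ribosomal protein and 8 respiratory chain genes fell, and over all genes 290 fell and 154 rose, while the 2-cell-stage count stayed at 33. When a replicate was left out, the number of ribosomal protein genes that fell ran from 1 to 76, and in the fit to the 2 genotypes alone it was 2. For the respiratory chain genes it ran from 5 to 56 and was 4. The part of length in the other results was not tested beyond that alternative.

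**Figure D5:**
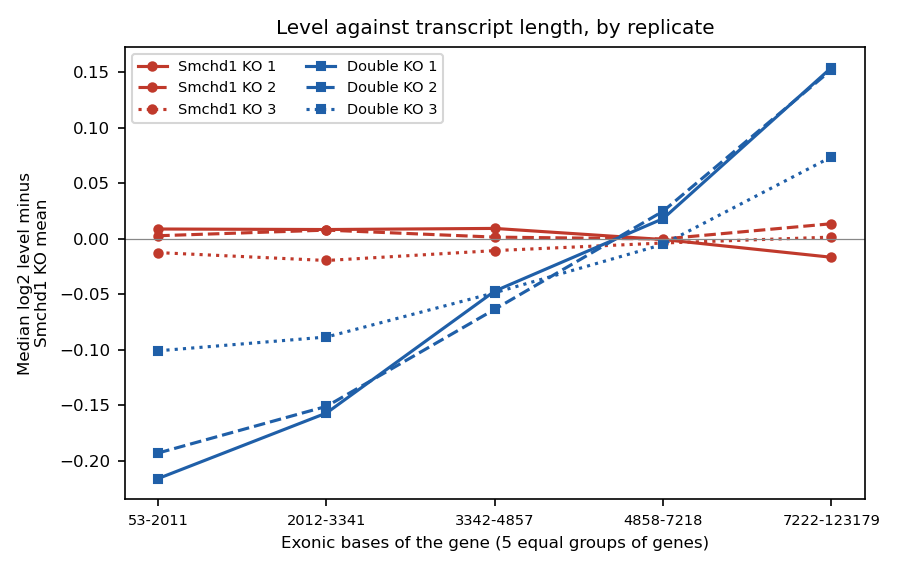
Median over genes of the log2 level minus the Smchd1 KO mean, by 5 equal groups of exonic length (x axis), for each replicate of Smchd1 KO (circles) and Double KO (squares). Smchd1 KO as a group is centred near 0 by this scale, and its replicates stay within 0.02 of 0. Double KO replicates run from -0.22 to -0.10 for genes with the fewest exonic bases up to 0.07 to 0.15 for those with the most.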

How the data were processed

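RNA-seq of mouse ES cells was analysed from the deposited table of Double KO, Smchd1 KO, WT and Dux KO. Its values are a normalized signal per gene, which the authors deposited under the name CPM. Column totals of the compared libraries ran from 906871 to about 1024750, so the values are per an effective library size. Per the submitters' processing notes, Trim Galore, STAR 2.5.1, limma 3.38.2 and the build mm9 were used; the read counter, the annotation and any filters are not given in the sources used here. The second table, of the Tet genotypes, was normalized separately and not used. In each of the 9 libraries compared, the values up to 200 reads were whole multiples of the smallest step (100%, with a tolerance of 0.1 read), so reads were recovered from the steps of the deposited signal. Samples were grouped by the genotype in their labels, and different replicate numbers were treated as biological replicates. The p-values measure only the spread between these samples. Smchd1 KO runs 1 and 4, 2 and 5, and 3 and 6 were averaged as runs of a replicate: the noise ratio (median squared difference between 2 libraries, relative to what counting alone gives) was 1.75 to 2.13 within these pairs and 3.21 to 12.7 between them, and 16.9 to 29.2 between Double KO replicates.

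The filter asked for 0.5 CPM or more in 3 or more samples of the 4 genotypes. The linear model of limma 3.58.1 (R 4.3.3) was run on log2(CPM + 0.5), with a mean per genotype and an intensity trend. Tests were two-sided, and the threshold was 0.05 on p adjusted over all genes tested by the Benjamini-Hochberg method. WT and Dux KO entered the fit for the estimate of the spread, which was common to the 4 genotypes for each gene. Their own median standard deviations were unequal, at 0.048 for WT and 0.30 for Dux KO on the log2 scale. For WT the noise ratio was 1.28 to 2.72 between replicates and 2.15 to 2.54 between runs of a replicate. The added 0.5 understates changes of genes with few reads. On recovered reads with runs summed, edgeR 4.0.16 called 897 genes and DESeq2 1.42.0 called 2456. Counting intervals and limits (3 reads over the group) cover counting error only. The methods were tested on simulated data. For the limma fit these had the same dispersion in every group, so that test does not cover the unequal spread of the groups here. Members, lists and tests were chosen with earlier results of these data known. Named were Smchd1 and the Dux genes, the 15 largest falls and rises that passed, in each list up to 6 called members or else the most abundant, up to 4 uncalled 2-cell-stage members per family and the main cell type markers; other names are marked as chosen later. Gene lengths and chromosomes come from GENCODE vM21, where 32620 of 37310 entries matched by Ensembl ID; sequences come from RefSeq (GRCm38.p6), and no coordinates of the authors' build were used. Alternatives were other pseudocounts, filters, normalizations and tools, each run alone, fits without each replicate, without shifted samples, with the replicate number as a block, and with the length trend removed.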

Additional observations from a re-analysis of the deposited data

How the results depend on the processing

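The fall of 2-cell-stage genes held under all alternatives run: 33 members fell as reported, 31 to 34 when a replicate of any genotype was left out, 33 with the replicate number as a block, 31 in the fit to 2 genotypes, and 19 with a filter of 2 CPM, where fewer members were tested. The size of their median did depend on the tool, at -2.98 as reported, -7.61 with edgeR and -6.84 with DESeq2, which do not add 0.5 CPM. The total of 709 genes (483 lower, 226 higher) was less stable. It was 2456 with DESeq2 (1208 and 1248), 2673 with array quality weights (1624 and 1049), 121 in the fit to 2 genotypes (101 and 20), 444 with the length trend removed (290 and 154), and 5806 (3197 and 2609) without Smchd1 KO replicate 2, Double KO replicate 3 and Dux KO replicates 2 and 3, in which a chromosome was shifted by over 0.3; that fit had a single Dux KO sample, whose spread was taken from the other genotypes. Higher genes numbered 356 with quantile normalization and 432 with edgeR. Leaving out single replicates gave totals from 99 to 2428, 87 to 1483 lower genes and 12 to 945 higher genes. The lowest came without Smchd1 KO replicate 1 and the highest without Double KO replicate 3; without WT replicates the total was 222 to 227, and without Dux KO replicates 725 to 1856. The causes were not tested. Rises made up 31.9% of calls as reported, 16.5% in the fit to 2 genotypes, 42.8% with quantile normalization, 44.9% without the shifted samples, 48.2% with edgeR and 50.8% with DESeq2. Falls outnumbered rises as reported, and rises outnumbered falls with DESeq2. No called gene named in the text changed the sign of its change under an alternative. The median of all genes moved by under 0.1 on the log2 scale under any scaling, from -0.03 as reported to 0.03 with edgeR and DESeq2.

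Replicates were not treated as pairs. The deviations of Smchd1 KO and Double KO replicates of the same number from their group means correlated at -0.18, -0.10 and -0.42 across genes. Between replicates of different number the correlation ran from -0.32 to 0.49. It was highest for Smchd1 KO replicate 3 with Double KO replicate 1 (0.49) and for replicate 2 with replicate 3 (0.38). Whether samples of different number belong together was not tested. With the replicate number as a block 669 genes passed (476 lower, 193 higher). Depth limits what Double KO can show: no reads over its 3 libraries allow up to 0.0608 CPM.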

Other observations

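Some large differences did not pass the test at this spread between replicates; these genes were chosen after their values were seen. The imprinted growth factor gene Igf2 had 25.8, 67.6 and 37.3 CPM in Smchd1 KO and 521, 130 and 90.2 CPM in Double KO, without overlap (log2 change 2.17, adjusted p = 0.0989), and stood at 29.2 to 30.3 CPM in WT. Cdx2, a transcription factor gene of the trophectoderm, had 0.190, 0.290 and 0.104 CPM in Smchd1 KO and 8.66, 0.550 and 1.60 CPM in Double KO, also without overlap (1.98, adjusted p = 0.0772), with 0.791 to 1.31 CPM in WT. The imprinted adaptor gene Grb10 had 337, 549 and 371 CPM in Smchd1 KO and 81.1, 284 and 47.7 CPM in Double KO (-1.98, adjusted p = 0.120). The imprinted zinc finger gene Plagl1 had 1.01, 3.57 and 0.505 CPM and 8.35, 1.53 and 22.2 CPM, with overlap (2.01, adjusted p = 0.115).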
